A study of Mus musculus with 6 samples.

Results

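ATF4 ChIP-seq peaks assigned to collagen genes and to genes that process collagen were examined in mouse embryonic fibroblasts (MEFs), the cells that lay down much of the collagen of the embryo's connective tissue. The members were chosen by gene name. They were every collagen chain gene (Col, a number, a and a number) and 15 processing genes, namely Serpinh1, P4ha1, P4ha2, P4ha3, Plod1, Plod2, Plod3, Lox, Loxl1, Loxl2, Loxl3, Loxl4, Crtap, Bmp1 and Pcolce. Of 17462 peaks in 4 lists, 76 were assigned to a member, meaning that its transcription start site (TSS) was the nearest. The reference annotation held 44 collagen and 15 processing genes, 59 in all, of which 30 and 4 had a peak in at least 1 list. For these counts over all lists, and those by kind of collagen below, the share of all protein-coding genes is not given. In single lists it was 8.56 to 18.3%, which is not a like measure for counts over 4 lists. Over the 4 lists, 8863 genes of any type were named as nearest, where the reference held 21883 protein-coding genes.

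The 4 lists came from MEFs of strain 129S6/SvEvTac, either wild-type (WT) or lacking GCN2 (genotype GCN2-/-, called GCN2 KO), kept for 24 h in complete DMEM (+Leu) or in DMEM lacking leucine (-Leu). Chromatin of 2 independent experiments was pooled for each condition and gave a single library. Without replicate libraries no test between conditions was made. The 2 input libraries, both from leucine-fed cells, were not analysed here. Peak lists hold no expression values, so neither fibroblast markers nor the loss of GCN2 could be checked, and they give no sequencing depth. Each peak is a window of 301 bases around a summit, on mm10, and carries the peak caller's score, a whole number from 13 up that was not scaled between libraries. What the score measures is not stated, so a ratio of scores cannot be read as a fold change in ATF4 binding.

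Collagens are trimers of chains that are hydroxylated, folded and assembled in the endoplasmic reticulum, secreted, trimmed and cross-linked outside the cell. Fibril-forming chains such as Col1a1 and Col1a2 build the bulk of connective tissue, and other chains form networks, beaded filaments or coats on the fibrils. Serpinh1 (HSP47) is the chaperone that holds folded procollagen in the endoplasmic reticulum. P4ha1 to P4ha3 hydroxylate its prolines, Plod1 to Plod3 its lysines, Bmp1 cuts off the C-terminal propeptide, and Lox and its relatives form the cross-links. ATF4 is the transcription factor made when GCN2 senses amino acid shortage, and it is known to bind TGATGCAA, a composite site shared with C/EBP proteins.

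The sites with the highest scores among the members lay 7.1 kb upstream of Serpinh1 and inside Col14a1, a collagen that coats fibrils. Both hold TGATGCAA. The Serpinh1 site is shown over the last 200 bases of its WT -Leu peak, chr7:99360289-99360488 (mm10, plus strand, between genes, with Gdpd5 21.1 kb away on its other side), because it was the only member site common to 3 lists. Capitals mark TGATGCAA and, 158 bases further on, TGACTCA, the AP-1 site.
Serpinh1 upstream site: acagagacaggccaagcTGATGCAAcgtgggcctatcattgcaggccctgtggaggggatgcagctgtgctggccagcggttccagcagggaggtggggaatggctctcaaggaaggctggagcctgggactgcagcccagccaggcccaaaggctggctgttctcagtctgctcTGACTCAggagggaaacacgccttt
The Col14a1 site lies in intron 19 of 47 and is shown over the central 101 bases of the WT -Leu peak, chr15:55417531-55417631 (mm10, plus strand), where TGATGCAA lay 2 bp from the center.
Col14a1 intron site: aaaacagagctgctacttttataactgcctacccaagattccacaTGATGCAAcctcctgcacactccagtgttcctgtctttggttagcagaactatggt

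To let the 3 member sites with TGATGCAA within 50 bp of a peak center be read side by side, each is given here with 12 bases of mm10 on either side, 5′ to 3′ along the strand of the motif, which is in capitals. Chac1, an established ATF4 target that encodes a glutathione-degrading enzyme, is added as a scale.
Serpinh1 (chr7:99360294-99360325, plus strand): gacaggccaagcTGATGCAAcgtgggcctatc
Col14a1 (chr15:55417564-55417595, plus strand): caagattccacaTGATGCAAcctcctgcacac
Col5a3 (chr9:20794491-20794522, plus strand): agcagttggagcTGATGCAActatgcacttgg
Chac1 (chr2:119351037-119351068, minus strand): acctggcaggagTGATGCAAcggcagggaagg
In all 4, the motif is followed by c. Serpinh1 and Col5a3 also share agc before it, and Serpinh1 and Chac1 share cg after it.

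At Serpinh1, the upstream peak in WT had a score of 476 with leucine and 834 without it. In GCN2 KO it had a score of 142 with leucine, and no peak was listed there without it. It was the member peak with the highest score in each of the 3 lists that held it. Its rank in WT was 9 of 4850 peaks with leucine and 43 of 6374 without it, and 17 of 3566 in GCN2 KO +Leu, so its score was higher without leucine in WT while its place in the list was lower. The score without leucine was 1.75 times that with leucine in WT, against a median of 2.36 over the 308 peaks common to both WT lists. The WT +Leu score was 3.35 times that of GCN2 KO +Leu, against a median of 1.5 over 93 common peaks. Known ATF4 targets also scored higher in WT +Leu than in GCN2 KO +Leu. Their scores were 1499 and 391 (Chac1), 746 and 184 (Asns), 398 and 161 (Psat1), 173 and 40 (Ddit3), and 101 and 58 (Trib3).

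The centers of the 3 Serpinh1 peaks lay 7105, 7099 and 7038 bp upstream of the TSS, and TGATGCAA was 34, 28 and 32 bp from them. The motif is at chr7:99360306-99360313. In GCN2 KO -Leu the nearest peak of any gene was 200505 bp away. Because the lists hold only peaks past the caller's threshold, the absence of a peak does not show that ATF4 was absent. The same library listed scores of 184 at Chac1, 41 at Asns (asparagine synthetase) and 66 at Psat1 (serine synthesis), and it held no peak assigned to Ddit3 or Trib3, which encode stress-response factors. At Chac1 the scores of the other lists were 1499 (WT +Leu), 2515 (WT -Leu) and 391 (GCN2 KO +Leu), all above those at Serpinh1. At Ddit3 they were 173, 736 and 40, all below those at Serpinh1.

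At Col14a1, the intron peak had a score of 120 (rank 68) in WT +Leu and 380 (rank 136) in WT -Leu, and no peak in either GCN2 KO list. The score without leucine was 3.17 times that with leucine, above the median of 2.36 over common WT peaks. Its centers lay 109775 and 109831 bp downstream of the TSS. The nearest GCN2 KO peaks were 788652 bp away with leucine and 2489291 bp away without it. TGATGCAA, at chr15:55417576-55417583, was 54 bp from the WT +Leu center and 2 bp from the WT -Leu center, so it counted as central in WT -Leu alone.

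**Figure D1:**
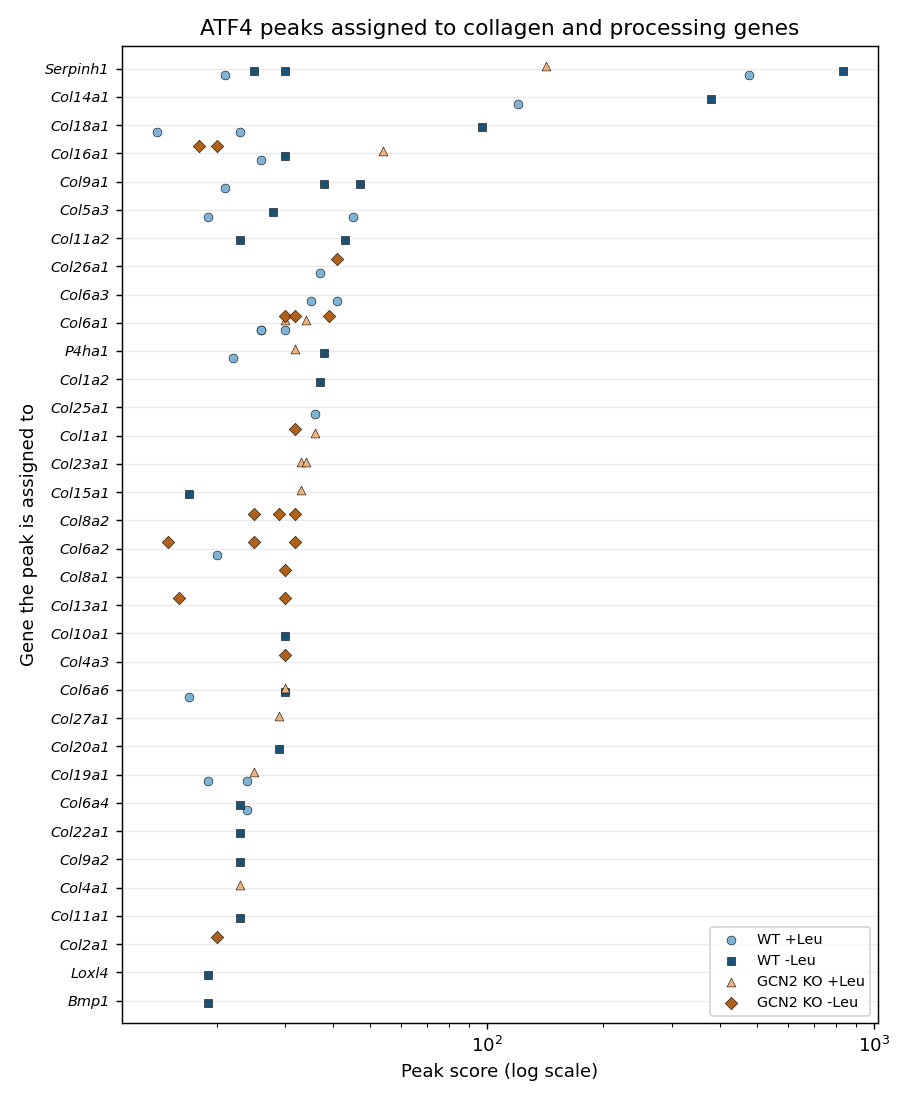
Peak score on a log axis for the 76 peaks assigned to the 34 genes that had any, with 1 symbol per peak, shaped and coloured by list, and genes ordered by their highest score. Serpinh1 and Col14a1 reach 834 and 380, while 69 of the 76 peaks sit at 50 or below.

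Apart from these sites, 2 member peaks scored above 50. Col18a1, whose chain is the source of endostatin, had a peak of score 97 in WT -Leu, 40309 bp upstream and between genes, in a window with 2 TGACTCA matches, whose middle bases lay 50 and 79 bp from its center. Col16a1, another fibril-associated collagen, had a peak of score 54 in exon 23 of 70 in GCN2 KO +Leu. The other 69 peaks scored 50 or less. Over all 17462 peaks, 10.92% scored above 50, against 7 of 76 here. The members' median score in WT was 25 with leucine and 30 without it, beside 30 in both whole lists. In GCN2 KO it was 33 with leucine and 30 without it, beside 29 and 30.

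WT MEFs had 22 member peaks with leucine (0.4536% of the list, 95% Wilson interval 0.2998 to 0.6859) and 23 without it (0.361%, 0.241 to 0.541). GCN2 KO MEFs had 13 with leucine (0.365%, 0.213 to 0.623) and 18 without it (0.674%, 0.426 to 1.06). These and all other intervals cover counting error only. The ratio of peaks without to with leucine was 1.05 in WT (0.587 to 1.86) beside 1.31 over all peaks, and 1.38 in GCN2 KO (0.688 to 2.79) beside 0.749. Both intervals held the ratio over all peaks of that genotype, and both held 1. With a score of 30 or more the ratio was 1.5 in WT (0.63 to 3.57), beside 1.54 over all such peaks. In GCN2 KO it was then 1.0 (0.427 to 2.34), beside 0.823.

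Counted as genes, 15 of 59 members had a peak in WT +Leu (25.4%, 16.1 to 37.8), where 14.6% of 21883 protein-coding genes did. Without leucine, 19 members had a peak in WT (32.2%, 21.7 to 44.9), beside 18.3%. In GCN2 KO the count was 11 with leucine (18.6%, 10.7 to 30.4), beside 11.1%, and 10 without it (16.9%, 9.48 to 28.5), beside 8.56%. The member share was thus above the share of all genes in each list, with that share inside the interval in GCN2 KO +Leu alone. Members are long, with a median span of 68.79 kb against 17.17 kb over all protein-coding genes.

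**Figure D2:**
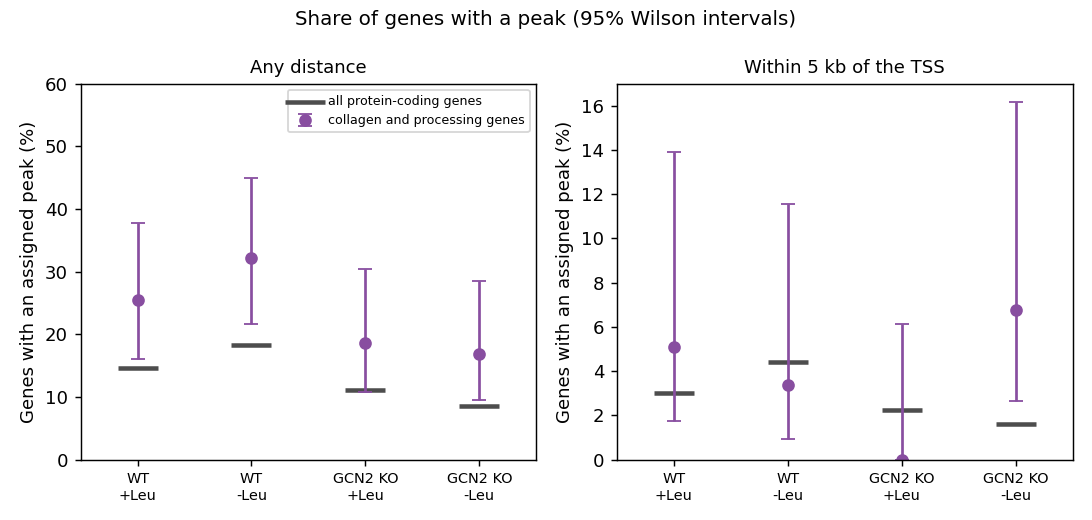
Percentage of the 59 collagen and processing genes with an assigned peak (points with 95% Wilson intervals) and of all 21883 protein-coding genes (bars), by list, at any distance (left) and within 5 kb of the TSS (right). At any distance the points lie above the bars in all 4 lists, and within 5 kb the bars lie inside the intervals except in GCN2 KO -Leu.

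Counted per length of gene, the density of peaks in members had wide intervals. Inside member genes, whose spans add up to 5.905 Mb, 2.54 peaks per Mb were listed in WT +Leu (exact Poisson interval 1.42 to 4.19), beside 2.617 over all protein-coding genes. Without leucine the WT values were 3.73 (2.33 to 5.64) and 3.574. In GCN2 KO they were 1.52 (0.697 to 2.89) and 1.961 with leucine, and 2.37 (1.30 to 3.98) and 1.461 without it. Each interval over gene spans held the value of all genes. With 5 kb added on either side of each gene, that of GCN2 KO -Leu no longer did, at 2.63 for members (1.53 to 4.21) and 1.431 for all genes, while those of the other 3 lists still held it.

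**Figure D3:**
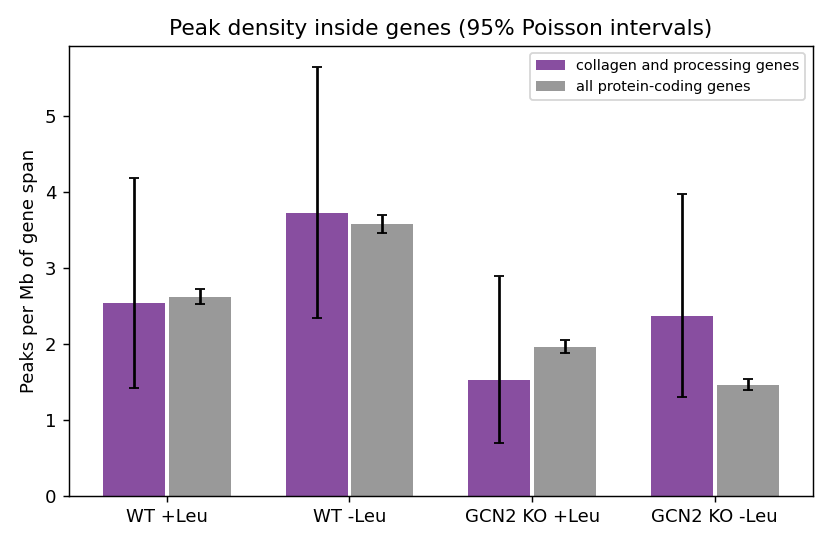
Peaks per Mb of gene span in collagen and processing genes (purple) and in all protein-coding genes (grey), by list, with 95% exact Poisson intervals. The purple intervals, which run from 0.697 to 5.64 over the 4 lists, hold the grey value each time, which for GCN2 KO -Leu was not so once 5 kb was added on either side of each gene.

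Within 5 kb of a TSS, members had few peaks, all of low score. In WT, 3 members had such a peak with leucine (5.08%, beside 3.03% of all genes) and 2 without it (3.39%, beside 4.40%). In GCN2 KO it was 0 with leucine (0 of 59, Wilson upper bound 6.11%, beside 2.27%, and a limit of 5.08% if 3 genes are taken as what a count of 0 allows) and 4 without it (6.78%, 2.67 to 16.2, beside 1.61%). The 10 peaks belonged to 9 collagens and to no processing gene, scored 14 to 43, and lay each in a single list. Among all peaks, too, only 1.271 to 6.351% were common to a given pair of lists.

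In WT +Leu these were Col6a3 (score 41, 4637 bp upstream, in an LTR repeat), Col5a3 (score 19, 1662 bp upstream) and Col18a1 (score 14, 3767 bp downstream, in intron 2). In WT -Leu they were Col11a2 (score 43, 288 bp downstream, in exon 1 of 64), a cartilage fibril chain, and Col10a1 (score 30, 4639 bp downstream, in exon 3 of 3), the collagen of hypertrophic cartilage. Col10a1 lies inside Nt5dc1, so that peak sits in both genes. In GCN2 KO -Leu they were Col26a1 (score 41, 304 bp downstream, in a CpG island), Col6a1 (score 39, 3354 bp downstream), Col6a2 (score 25, 1624 bp downstream) and Col8a2 (scores 25 and 29, 1846 bp downstream and 4011 bp upstream). None of the 10 held TGATGCAA within 50 bp of its center. Of all peaks scoring 50 or less on assembled chromosomes, 1.018% did.

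**Figure D4:**
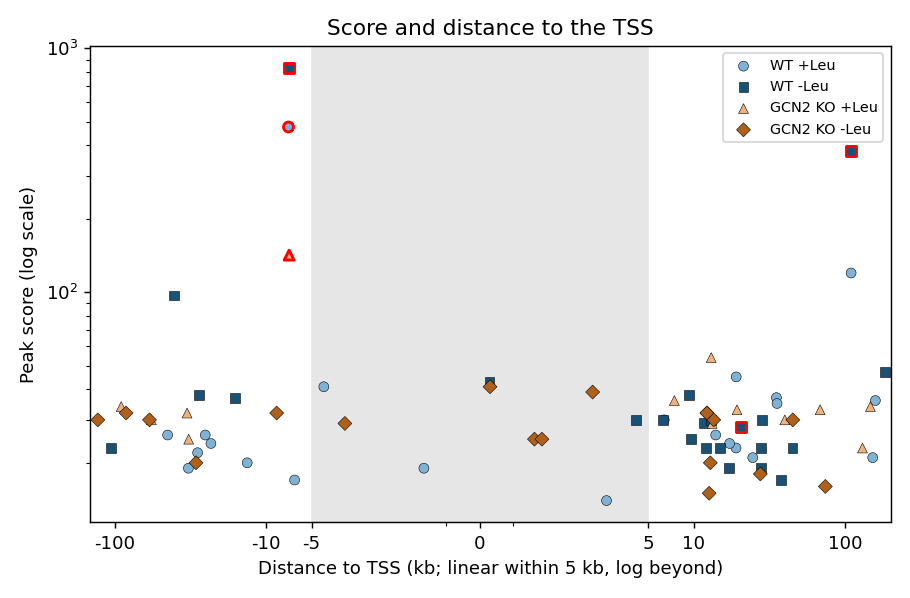
Score (log axis) against distance from the TSS (kb, negative upstream, linear within 5 kb and logarithmic beyond) for the 76 member peaks, with the 5 kb window shaded and red outlines on the 5 peaks that hold TGATGCAA within 50 bp of the center. The 10 peaks in the shaded window score 14 to 43, and the peaks above 50 lie outside it.

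The fibril-forming chains had 11 peaks over 7 of 11 genes, with scores of 19 to 45. Col1a1 had 1 peak in GCN2 KO +Leu (score 36, exon 25 of 51) and 1 in GCN2 KO -Leu (score 32, exon 42), and none in WT. Col1a2 had 1, in WT -Leu (score 37, 16115 bp upstream), and Col3a1, the partner of type I collagen in soft tissues, had none. At Col5a3 a peak of score 45 in WT +Leu (intron 25) and a peak of score 28 in WT -Leu (intron 27) were separate sites, and the latter held TGATGCAA 32 bp from its center. No fibril-forming gene had the same site in more than 1 list. Common sites were few among all peaks as well, at 1.271 to 6.351% for a given pair of lists.

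Of the chains of beaded filaments, 5 of 6 had a peak, 19 in all, with scores of 15 to 41. Col6a1 had 8 peaks, the most of any member. Of these, 5 lay in introns of Pcbp3, the gene upstream of it, from 44668 to 90485 bp from the Col6a1 TSS. Of these, 1 came from WT +Leu and the others from the GCN2 KO lists, and their nearest-gene assignment says nothing of which gene they may act on. Col6a3, with scores of 35 and 41, had peaks in WT +Leu alone. Col6a6 had peaks of score 17, 30 and 30 in 3 lists at 3 places, and its GCN2 KO +Leu peak held TGATGGAA, a 1-base variant of the ATF4 site, 24 bp from the center.

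The fibril-associated chains had 16 peaks over 7 of 9 genes. Col14a1, described above, is of this kind. Col16a1 was the only member of any kind with a peak in all 4 lists, 5 peaks in all. Their scores in WT were 26 with leucine and 30 without it, and in GCN2 KO 54 with leucine and 20 and 18 without it. The peaks of score 54 and 20 had centers 180 bp apart. The weaker of these held the AP-1 site 6 bp from its center, shown here because no other member peak had all letters of TGACTCA within 50 bp of its center. On the plus strand of mm10 the site reads TGAGTCA (capitals), at the center of chr4:130060686-130060786, in intron 22.
Col16a1 intron site: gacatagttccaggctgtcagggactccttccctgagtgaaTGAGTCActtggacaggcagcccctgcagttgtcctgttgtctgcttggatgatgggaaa
Col19a1 had a peak of score 19 in WT +Leu and of score 25 in GCN2 KO +Leu, with centers 148 bp apart, both in repeats, 32573 and 32425 bp upstream. Col9a1 had a peak of score 38 in its own intron 12 in WT -Leu, while its peaks of score 47 in WT -Leu and 21 in WT +Leu lay inside the neighbouring Col19a1.

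The network-forming chains had 7 peaks over 5 of 9 genes, scores 23 to 32, of which 5 were in GCN2 KO -Leu and 0 in WT +Leu. Col8a2, a chain of Descemet's membrane, made up 3 of those 5. Among basement membrane chains, Col4a1 had 1 peak (score 23, GCN2 KO +Leu) and Col4a3 had 1 (score 30, GCN2 KO -Leu). Membrane-spanning chains had 5 peaks over 3 of 4 genes, among them 2 at Col23a1 in GCN2 KO +Leu (scores 33 and 34). The multiplexins Col15a1 and Col18a1 had 5 peaks.

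Of the 15 processing genes, 4 had a peak, 11 peaks in all. None of the 11 was in GCN2 KO -Leu, where 8.56% of all protein-coding genes had a peak. Beside its upstream site, Serpinh1 had a peak of score 21 in an intron of Map6 in WT +Leu, and peaks of score 30 and 25 downstream of the gene in WT -Leu. P4ha1 had a peak 28300 bp upstream in WT +Leu (score 22) and 27805 bp upstream in WT -Leu (score 38), with centers 495 bp apart, so they did not count as common. It had another 33222 bp upstream in GCN2 KO +Leu (score 32). Bmp1 and Loxl4 had 1 peak each, both of score 19 in WT -Leu. The lysyl hydroxylases Plod1, Plod2 and Plod3, the prolyl hydroxylases P4ha2 and P4ha3, the cross-linking enzymes Lox, Loxl1, Loxl2 and Loxl3, and Crtap and Pcolce, which assist prolyl 3-hydroxylation and propeptide cleavage, had none.

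The 14 collagens without an assigned peak were Col3a1, Col4a2, Col4a4, Col4a5, Col4a6, Col5a1, Col5a2, Col6a5, Col7a1, Col9a3, Col12a1, Col17a1, Col24a1 and Col28a1. Assignment to the nearest TSS leaves out peaks that lie inside a long gene but nearer to a neighbour. Of 60 peaks inside member genes, 13 were assigned to genes that are not members. They included 1 in Col5a1 (score 45, WT -Leu, assigned to Fcnb) and 3 in Col4a2 (scores 20 to 23, assigned to Rab20), so that 2 of the 14 did hold a peak. The others lay in Col27a1, Col23a1 and Col20a1, with scores of 21 to 30.

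Sites were seldom common to a pair of lists. With centers 300 bp or less apart, the WT lists shared 2 member peaks (Serpinh1 and Col14a1), 9.09% of the WT +Leu and 8.70% of the WT -Leu member peaks, beside 6.351% of all WT +Leu peaks. The leucine-fed lists of WT and GCN2 KO shared 2 (Serpinh1 and Col19a1), 9.09% of the WT and 15.4% of the GCN2 KO member peaks, beside 1.918% of all WT +Leu peaks. The GCN2 KO lists shared 1 (Col16a1), 7.69% of the member peaks with leucine and 5.56% of those without it, beside 2.748% of all peaks with leucine. WT -Leu and GCN2 KO +Leu shared 1 (Serpinh1), 4.35% and 7.69%, beside 1.726% of all WT -Leu peaks. GCN2 KO -Leu shared 0 with WT +Leu and 0 with WT -Leu, where 1.567% and 1.271% of all peaks of those WT lists were shared. Each share over all peaks is that of the list named with it. Member shares of the other list of a pair have no such share beside them. The Wilson intervals of member shares that rest on 1 or 2 peaks are wide, from 2.53 to 27.8% for 2 of 22 and from 1.37 to 33.3% for 1 of 13. Although 15 genes had a peak in at least 2 lists, 4 of them had the same site. Hence 9 of the 76 peaks were common to at least 1 other list. The same share over all peaks is not given here. For single pairs it was 1.271 to 6.351%, so peaks found in 1 list were usual among all peaks too.

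Of the 76 peaks, 45 lay in introns (59.2%, beside 44.61% of all peaks), 8 in exons (10.5%, beside 6.133%) and 23 between genes (30.3%, beside 41.79%). None was annotated as promoter, a class that was rare in every whole list too, with a share of 2.208 to 3.969%. Repeats held 12 (15.8%, beside 22.87%). In 45 cases the peak was inside the gene it was assigned to, and in 8 inside another gene.

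TGATGCAA was searched on both strands, with all its letters within 50 bp of the center. In WT it was found in 1 of 22 member peaks with leucine (4.55%, beside 2.707% of all peaks) and 3 of 23 without it (13.04%, beside 6.948%). In GCN2 KO it was found in 1 of 13 with leucine (7.69%, beside 1.071%) and 0 of 18 without it (Wilson upper bound 17.6%, beside 1.091%, and a limit of 16.7% if 3 peaks are taken as what a count of 0 allows). These 5 peaks were the 3 at Serpinh1, that of Col14a1 in WT -Leu and that of Col5a3. Of the 7 member peaks above a score of 50, 4 held it, and of the 69 at 50 or below, 1 did. The 4 are not separate sites, since the 3 at Serpinh1 hold the same motif and the other is that of Col14a1. Over all peaks on assembled chromosomes the shares were 25.54% of 1887 and 1.018% of 15521.

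Of the 59 members, 44 matched the RefSeq promoter table (250 bases before to 50 after the TSS, mm10). TGATGCAA was in 0 of these 44 and in 1.012% of 17491 promoters, TGATGNAA, which takes in TGATGCAA, in 0 and 4.134%, and TGACTCA in 1, that of Col6a1, and 5.397%. This says only that those letters are not in these windows.

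Of 39 further genes for collagen making, secretion, cutting and binding, 8 had a peak in WT with leucine (20.5%, beside 14.6% of all protein-coding genes) and 11 without it (28.2%, beside 18.3%). In GCN2 KO it was 7 with leucine (17.9%, beside 11.1%) and 3 without it (7.69%, beside 8.56%). All these peaks lay beyond 5 kb of the TSS. Creb3l1 (OASIS), a transcription factor of the endoplasmic reticulum known to act on Col1a1 in bone, had a peak 31.4 kb upstream in every list. Its scores in WT were 295 with leucine and 1066 without it, and in GCN2 KO 262 and 228, and all 4 peaks held TGATGCAA within 50 bp of the center. Ddr2, a collagen receptor, had a peak 21.8 kb upstream with TGATGCAA, of score 79 in WT +Leu and 236 in WT -Leu and absent from the GCN2 KO lists. Adamts2, which cuts off the N-terminal propeptide, had a peak of score 101 with TGATGCAA inside the gene in WT -Leu. Creb3l1 is set here because its site, unlike that of Serpinh1, remained listed in GCN2 KO -Leu. Ddr2 and Adamts2 are given as further genes with TGATGCAA in a peak. These genes were chosen after their values were seen.
Creb3l1 (chr2:92055591-92055622, minus strand): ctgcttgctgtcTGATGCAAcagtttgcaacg
Ddr2 (chr1:170110755-170110786, plus strand): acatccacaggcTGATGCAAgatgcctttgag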

How the data were processed

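ATF4 ChIP-seq libraries (antibody sc-200) from WT and GCN2 KO MEFs with and without leucine were sequenced as single reads. After trimming with fastx, the authors mapped the reads on mm10 (BWA 0.7.12), called peaks with MACS2 2.1.0 (false discovery rate of 0.05) against input DNA and annotated the summit ±150 bp with HOMER 4.7, tools that the submitters' processing notes name. Per the file headers, input from cells with leucine served as control for the -Leu lists too. Each deposited peak has a score, a distance to the TSS, and its CpG and GC content, a fraction that the authors computed from mm10.

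Peaks were selected by gene name, counted, compared by center distance (300 bp) and searched for motifs in GRCm38, whose GC content equalled the listed one for every peak on assembled chromosomes. Gene spans and the background of protein-coding genes came from the reference annotation. Shares have 95% Wilson and densities exact Poisson intervals. The tools were samtools 1.23.1, pysam 0.24.0 and Python 3.11.15 with pandas 2.3.3, numpy 2.4.6, matplotlib 3.10.9 and scipy 1.17.1, and the counting steps were tested on simulated data. Depth is unknown, and with 1 library per condition no test was made.

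The members, the 39 further genes and the reference targets were chosen with earlier results of these data known. Members were named if they had a peak within 5 kb of a TSS, a common site, TGATGCAA within 50 bp or no peak, or were among the 5 highest-scoring members of a list or the 3 with most peaks. Other members named as examples of their kind, and the further genes named, were chosen after their values were seen. The alternatives tried were a score of 30 or more, the 2672 strongest peaks of each list, collagens alone, TSS windows of 1 and 10 kb, common distances of 100 and 1000 bp, a motif window of 150 bp, TGATGNAA, and spans with 5 kb on either side.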

Additional observations from a re-analysis of the deposited data

Results flagged for a closer look

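At the peak upstream of Serpinh1, the genotypes moved apart. In WT its score was 1.75 times higher without leucine than with it (834 against 476), whereas in GCN2 KO it was listed with leucine at 142 and not listed without it. With 1 library in each condition, this difference was not tested. It is not particular to Serpinh1. At the 5 reference targets too, scores in WT were higher without leucine, while in GCN2 KO they were lower (Chac1 391 and 184, Asns 184 and 41, Psat1 161 and 66, with and without leucine) or no peak was listed without it (Ddit3, Trib3). The ratio of 1.75 was below the median of 2.36 over common WT peaks.

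The number of member genes with a peak within 5 kb of the TSS also moved in opposite directions, by -1.0 in WT (from 3 to 2) and by 4.0 in GCN2 KO (from 0 to 4). Over all protein-coding genes, the counts went from 664 to 963 in WT and from 496 to 352 in GCN2 KO, the other way in each genotype. The difference in members was not tested either, and the peaks behind it scored 14 to 43. The WT direction depended on the settings. With a score of 30 or more the WT count went from 1 to 2, within 1 kb from 0 to 1, and among the 2672 strongest peaks it was 1 in both, while within 10 kb it went from 6 to 5.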

How the results depend on the processing

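Of 59 values recomputed under an alternative, 41 moved by less than their counting interval or stayed within 1.5 times, and 18 moved more. With a score of 30 or more, member peaks numbered 8 and 12 in WT with and without leucine and 10 in GCN2 KO -Leu. In GCN2 KO +Leu they numbered 10 as well, from 13 without the minimum. Member genes within 5 kb then numbered 1 in WT +Leu and 2 in GCN2 KO -Leu (2 in WT -Leu, as without the minimum). Among the 2672 strongest peaks, each WT list held 8 member peaks, and 1 gene within 5 kb in each. Within 1 kb of the TSS there were 0 genes in WT +Leu, 1 in WT -Leu and 1 in GCN2 KO -Leu, and within 10 kb 6, 5 and, in GCN2 KO +Leu, 2. At 100 bp, the leucine-fed lists shared 1 member peak and the GCN2 KO lists 0, and at 1000 bp the -Leu lists of WT and GCN2 KO shared 1. Each of these alternatives admits fewer or more peaks by construction. The GCN2 KO ratio within 5 kb could not be given, since 0 peaks were listed with leucine. No paired analysis was possible because each condition had a single library and no result came from a test.

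Scores were not scaled between libraries and depth is unknown, so more peaks in a list cannot be told apart from deeper sequencing. Member scores were mostly 50 or less (69 of 76), as were those of all peaks (89.08%). Of the 76, 67 were found in a single list. Among all peaks, 1.271 to 6.351% were common to a given pair of lists. The nearest-TSS rule assigned 8 peaks inside other genes to members and left out 13 inside member genes. Chromatin was pooled before sequencing, so the spread between cultures is not known.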
